A study of Mus musculus with 20 samples.

Results

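The genes described here are 34 genes of pyruvate, lactate and citric acid cycle metabolism among the 54532 genes of a mouse RNA-seq count table. They were listed by symbol, with earlier results of these data known. All 34 symbols were found in the table, and all 34 passed the filter on low counts. They encode the mitochondrial pyruvate carrier, lactate dehydrogenases, the pyruvate dehydrogenase complex with its kinases and phosphatases, and enzymes of the citric acid cycle.

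RNA was sequenced from condylar heads of the temporomandibular joint (TMJ, the jaw joint), collected with part of the subchondral bone. All animals were Acan-Cre;*Loxl2* fl/fl, carrying floxed *Loxl2*, the gene of lysyl oxidase like 2, and a tamoxifen-inducible Cre recombinase (CreERT2) driven by the aggrecan locus. They were 6 months old at the start and were collected after 4 months, with both sexes in each group. The 8 control animals received vehicle and the 12 animals labelled knockout received tamoxifen. The drug and the deletion therefore cannot be told apart. Cre was expected in aggrecan-expressing cells alone, so other cells of the joint head keep the gene. *Loxl2* RNA did not fall in the libraries labelled knockout. It ran from 16 to 103 CPM (counts scaled to a common library size) in control, with a median of 70.3, and from 28.8 to 126 CPM in the libraries labelled knockout, with a median of 110. The log2 fold change was 0.64 (edgeR adjusted p = 0.101, SE 0.28), and 11 of 12 libraries labelled knockout were above the control median. This checks RNA of the whole tissue, not protein or single cell types. The groups are therefore called control and labelled knockout throughout.

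Library totals ran from 11153820 to 27045668 counts, and no member fell below 17 counts in any library. The cartilage label was checked on 12 chondrocyte genes, of which none was at 0 in all libraries. Their summed level ran from 101 to 3213 CPM in control and from 1579 to 5060 CPM in the libraries labelled knockout (adjusted exact permutation p = 0.0730). Control replicate 8 was almost without cartilage RNA, with *Col2a1* at 1.7 CPM and *Acan* at 2.2 CPM, and *Acan* was 2.4 CPM in control replicate 6. In knockout replicates 4, 5 and 7 *Acan* was also low, at 13.8, 5.2 and 9.7 CPM. The sum in these libraries was carried by *Prg4*, which is among the 12 genes. *Prg4* was 1822 CPM in control replicate 6 and 2324, 1553 and 3135 CPM in knockout replicates 4, 5 and 7. The sum of 16 skeletal muscle genes ran from 59608 to 206820 CPM in control and from 42196 to 108800 CPM in the libraries labelled knockout, so muscle RNA was present in every library.

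Pyruvate made by glycolysis is either reduced to lactate in the cytosol by lactate dehydrogenase or carried into mitochondria. There the pyruvate dehydrogenase complex converts it to acetyl-CoA, which citrate synthase feeds into the citric acid cycle. Kinases of the complex switch it off by phosphorylation and phosphatases switch it on again. Cartilage cells rely strongly on glycolysis, whereas oxidative muscle fibres are rich in cycle enzymes.

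Most of these genes were lower in the libraries labelled knockout, and *Pdk3*, a pyruvate dehydrogenase kinase, was the exception. Of the 34 genes, 22 were lower and 1 was higher, with an adjusted p under 0.05 in the edgeR quasi-likelihood test. The background over all 15984 genes tested was 11% lower and 12% higher, or 23% in either direction. The log2 fold change was negative for 33 of the 34 genes, against 51.9% of all genes tested. Its median over the list was -0.45, a fold of 0.732, beside a median of -0.02 over all genes tested. Among genes called lower, the change ran from -0.37 for *Dlst* to -1.04 for *Pdk4*. The 11 genes not past the threshold had an edgeR adjusted p from 0.0503 to 0.668. The calls were kept in all 20 fits without 1 library for *Pdk3* and for 9 genes called lower, *Ldhd*, *Pdha1*, *Dld*, *Pdk4*, *Pdp1*, *Cs*, *Suclg2*, *Sucla2* and *Sdha*. The count called lower was 11 without control replicate 8 and 12 without control replicate 6. Over all genes, these fits called 988 of 16254 and 1297 of 16205 lower, beside 1755 of 15984 with all libraries. No member had groups that were fully separate in log2 CPM, against 0.3% of all genes tested. Since this is bulk tissue, fewer cells of a type and less RNA per cell cannot be told apart.

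**Figure D1:**
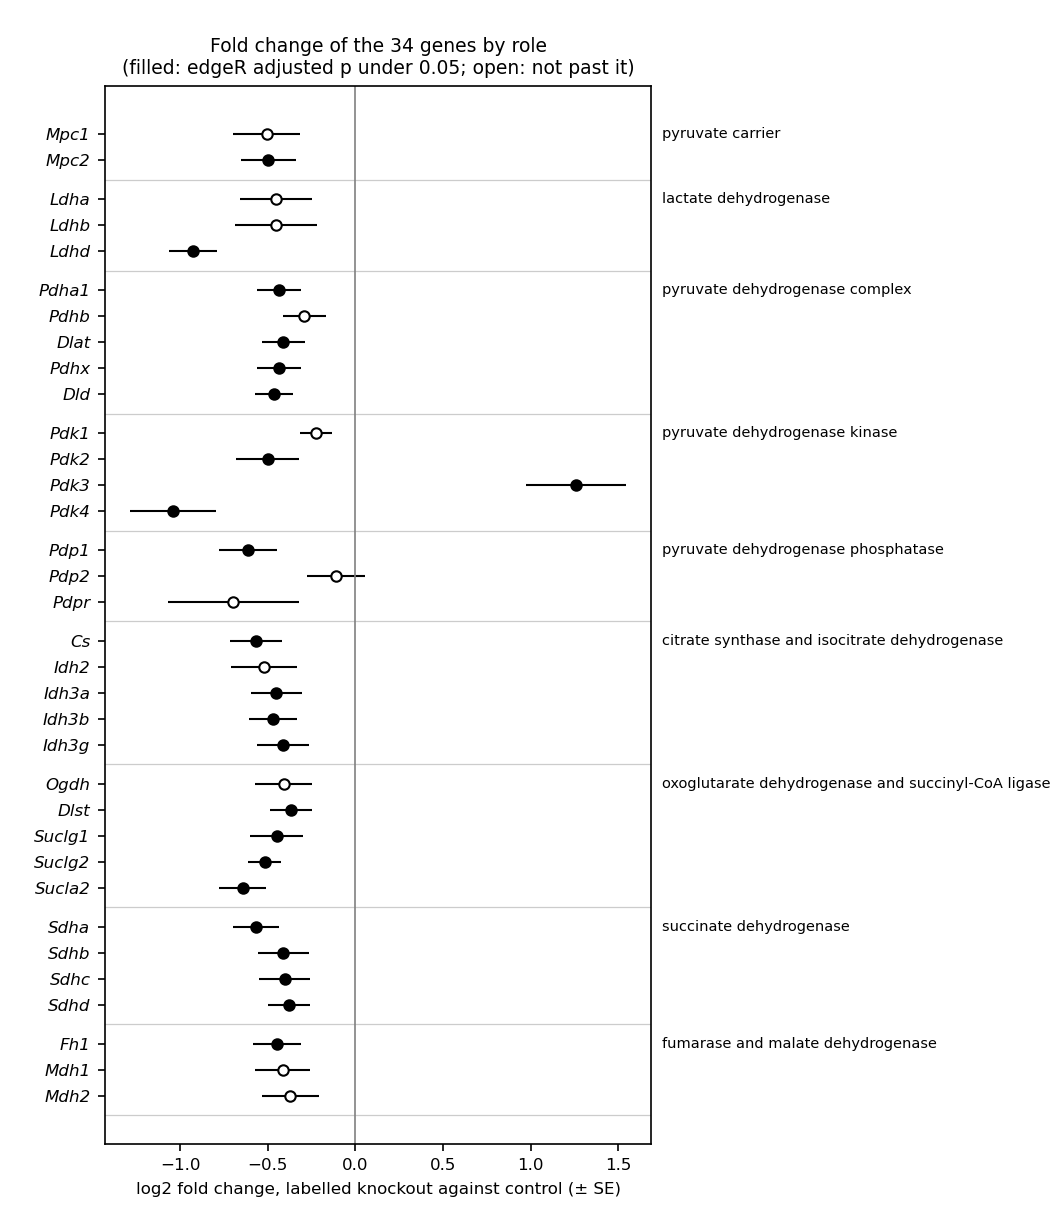
Log2 fold change of each of the 34 genes between the libraries labelled knockout (n = 12) and control (n = 8), with bars of 1 SE, grouped by role. Filled points passed an edgeR adjusted p of 0.05. All points lie left of 0 except *Pdk3*, at 1.26.

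Markers of other cells moved with the same groups. The summed level of skeletal muscle genes fell by 0.58 on the log2 scale in the libraries labelled knockout (adjusted exact permutation p = 0.0494), and 6 of 16 muscle genes were called lower, with a median of -0.57. Osteoclast genes were higher, with a summed level of 158 to 1099 CPM in control and 545 to 5839 CPM in the libraries labelled knockout (log2 difference 2.41, adjusted exact permutation p = 0.00102), and 10 of 10 were called higher. The macrophage sum rose by 1.52 on the log2 scale (adjusted exact permutation p = 0.00102), with 7 of 8 genes called higher, and the mast cell sum by 1.95 (adjusted exact permutation p = 0.0178), with 5 of 6 genes tested called higher. The adipocyte sum fell by 0.63 (adjusted exact permutation p = 0.0178), but it was carried by *Lpl*, with means of 1153 and 752 CPM. Of 7 adipocyte genes tested, *Lpl* alone was called lower, and their median log2 fold change was 0.05. The other 11 of 16 marker lists did not pass on their sums. Among them, the osteoblast and osteocyte sum rose by 1.29 (adjusted exact permutation p = 0.0704), and 5 of 10 of its genes were called higher. The neutrophil sum rose by 1.97 (adjusted exact permutation p = 0.0730), with 1 of 9 genes tested called higher. The erythroid sum changed by -0.74 (adjusted exact permutation p = 0.114), with no gene called. Genes of the mitochondrial genome took 17.8% of counts in control (SD 2.78, n = 8) and 13.6% in the libraries labelled knockout (SD 3.03, n = 12), and 21 members were called lower with these genes left out of the fit. With the muscle score as a covariate, 3 members were called lower, *Ldhd*, *Sucla2* and *Suclg2*, none was called higher, and the median was -0.22. Over all 15984 genes tested, that fit called 312 lower and 415 higher, beside 1755 and 1918 with no covariate. With the osteoclast score as a covariate, no member was called in either direction by edgeR and the median was -0.07. In that fit no gene of the whole table was called either, although 1255 of 15984 had an unadjusted p under 0.05. The osteoclast score had 59.6% of its variance between the groups and the muscle score 26.1%, so these covariates and the group overlap.

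For each library the log2 CPM of each gene was taken relative to its control mean, and the median over the 34 genes was formed. It ran from -0.32 in control replicate 1 to 0.34 in control replicate 8, and from -0.94 in knockout replicate 8 to 0.08 in knockout replicate 5. In 10 of the 12 libraries labelled knockout at least 31 of the 34 genes lay below their control mean. Knockout replicates 5 and 12 did not follow, with 13 and 15 genes below it. Among control libraries, replicates 1, 5 and 2 had 30, 29 and 27 genes below the control mean, and replicates 6 and 8 had 5 each. Control replicate 8, with the highest median of the list, also had the highest muscle score of the 20 libraries and the lowest chondrocyte score.

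**Figure D2:**
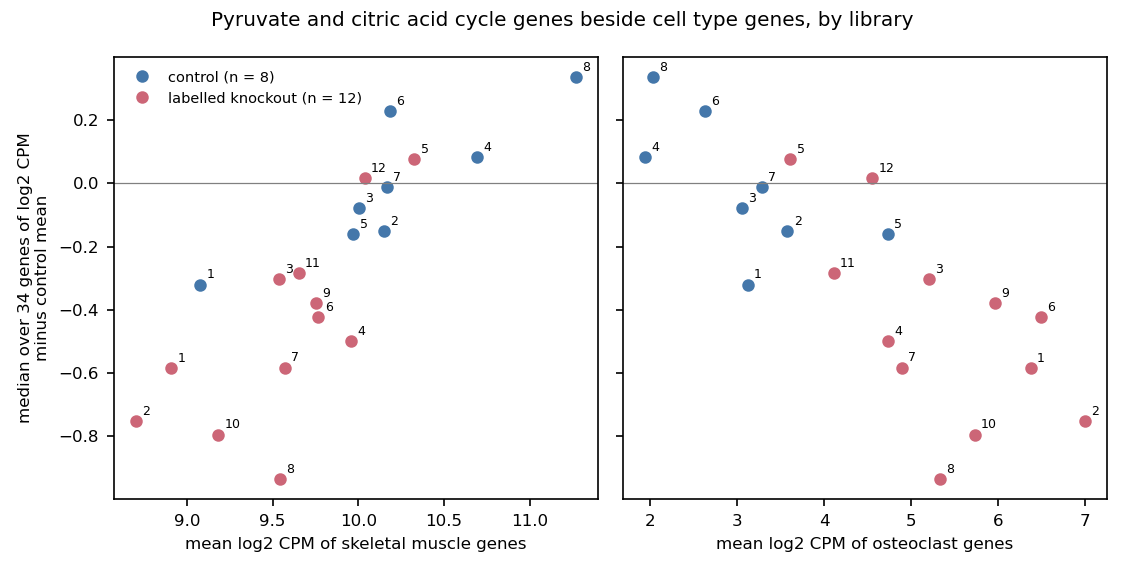
Each point is 1 library, numbered by replicate. The y axis is the median over the 34 genes of log2 CPM minus the control mean, and the x axis is the mean log2 CPM of 16 skeletal muscle genes (left) or 10 osteoclast genes (right). Control replicate 8 is at the top, with a median of 0.34, and knockout replicate 8 at the bottom, with -0.94.

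The promoters of 3 called genes are shown: *Pdk3*, the member that rose, *Pdk4*, the member with the largest fall, and *Sdhb*, a subunit called lower. The *Sdhb* promoter was chosen because it holds a run of letters that matches a motif searched here. Each run holds the 250 bases before the RefSeq start on GRCm38.p6, 5′ to 3′ on the strand of the gene. Capitals mark ACGTG, the core of hypoxia-inducible factor sites, in *Pdk3*, and the reverse complement of GCGCATGC, the core of NRF1 sites, in *Sdhb*. The *Pdk3* run is chrX:93832151-93832400 (minus strand), the *Pdk4* run is chr6:5496279-5496528 (minus strand) and the *Sdhb* run is chr4:140961021-140961270 (plus strand).
Pdk3: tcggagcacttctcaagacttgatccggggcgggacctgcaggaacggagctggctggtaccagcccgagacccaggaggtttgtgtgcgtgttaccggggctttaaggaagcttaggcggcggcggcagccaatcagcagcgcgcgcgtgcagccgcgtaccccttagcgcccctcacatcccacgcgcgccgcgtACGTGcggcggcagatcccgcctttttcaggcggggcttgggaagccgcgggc
Pdk4: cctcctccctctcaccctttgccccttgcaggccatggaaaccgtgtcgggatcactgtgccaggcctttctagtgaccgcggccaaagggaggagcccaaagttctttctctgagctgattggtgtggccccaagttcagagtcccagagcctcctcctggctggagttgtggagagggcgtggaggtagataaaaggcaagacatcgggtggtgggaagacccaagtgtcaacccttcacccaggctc
Sdhb: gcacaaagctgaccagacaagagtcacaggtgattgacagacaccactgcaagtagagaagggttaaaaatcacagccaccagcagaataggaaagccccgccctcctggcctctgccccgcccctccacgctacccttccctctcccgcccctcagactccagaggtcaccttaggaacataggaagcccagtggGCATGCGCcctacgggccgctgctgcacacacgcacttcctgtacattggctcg

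The capitals begin 53 bases before the start in *Pdk3* and 54 bases before it in *Sdhb*, and none of the motifs searched lay in the *Pdk4* window. RefSeq promoters of 250 bases before to 50 bases after a start were given for 31 of the 34 genes. ACGTG on either strand was in 11 of these (35.5%), against 21.8% of 27025 genes. These were *Pdk3*, called higher, *Ldhd*, *Pdk2*, *Idh3g* and *Sdha*, called lower, and *Ldha*, *Pdhb*, *Pdp2*, *Pdpr*, *Ogdh* and *Mdh1*, not called. GCGCATGC was in *Ogdh* and *Sdhb*, 6.45% of the members against 3.05% of all genes. The TCAAGGTCA site of oestrogen-related receptors was in *Sdhd* (3.23% against 0.466%), and AAGATGGC, the YY1 motif, was in *Idh3g* (3.23% against 3.19%). The 27025 genes are more than the 15984 tested, so this background was not matched to the members by expression. A gene can also have several starts, as *Ogdh* has, which gives it more room for a match. No motif searched contains another, both strands were read, and a match is a run of letters and no evidence of binding.

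The pyruvate dehydrogenase kinases had fold changes from -1.04 to 1.26 on the log2 scale, the widest range of any role in the list. *Pdk3* (ENSMUSG00000035232, chrX:93764607-93832201, minus strand, mm10) encodes a kinase isozyme that is usually scarce outside a few tissues. It ran from 1.30 CPM in control replicate 8 to 6.61 CPM in control replicate 5, with a median of 2.85, and from 3.44 to 13.5 CPM in the libraries labelled knockout, with a median of 7.52. Every one of the 12 libraries labelled knockout exceeded the control median and 8 exceeded the highest control library. The means were 3.60 ± 1.77 (SD, n = 8) and 8.65 CPM ± 3.35 (SD, n = 12), for a log2 change of 1.26 (edgeR adjusted p = 0.00497, SE 0.29). *Pdk3* was called higher in all 20 fits that left out 1 library. With the muscle covariate its log2 fold change was 0.75 (adjusted p = 0.0658), and with the osteoclast covariate 0.10 (adjusted p = 0.971).

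*Pdk4* (ENSMUSG00000019577, chr6:5483351-5496309, minus strand) encodes the kinase isozyme induced by fasting and by fatty acid use in muscle. It ran from 170 to 423 CPM in control, with a median of 352, and from 69.9 to 336 CPM in the libraries labelled knockout, with a median of 161. Control replicate 1 was the low end of its group and knockout replicate 5 the high end of the other, and 8 of 12 libraries labelled knockout lay below every control library. The mean fell from 330 ± 87.7 (SD, n = 8) to 160 CPM ± 75.0 (SD, n = 12), for a log2 change of -1.04 (edgeR adjusted p = 0.00613, SE 0.25). It was called in all 20 fits without 1 library. The log2 fold change was -0.68 with the muscle covariate (adjusted p = 0.0844) and also with the osteoclast covariate (adjusted p = 0.676).

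*Pdk2*, the widely expressed isozyme, ran from 312 to 839 CPM in control, with a median of 436, and from 231 to 473 CPM in the libraries labelled knockout, with a median of 364. Its control maximum was control replicate 8, and 5 of 12 libraries labelled knockout were below every control library. The log2 fold change was -0.50 (edgeR adjusted p = 0.0492, SE 0.18), and the call was kept in 5 of 20 fits that left out 1 library. With the muscle covariate it was -0.05 (adjusted p = 0.804). *Pdk1*, a known hypoxia-induced isozyme, ran from 59.1 to 91.3 CPM in control, with a median of 68.5, and from 50.1 to 70.0 CPM in the libraries labelled knockout, with a median of 64.8. The groups overlapped for most libraries, and the log2 fold change of -0.23 (SE 0.09) did not pass the threshold (edgeR adjusted p = 0.0712).

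Per kilobase of exon, the kinases kept a wide order of levels in both groups. *Pdk2* had a mean of 154 CPM per kb in control and 109 in the libraries labelled knockout. *Pdk4* had 93.9 and 45.6, *Pdk1* 9.36 and 8.00, and *Pdk3* 1.41 and 3.38 CPM per kb. *Pdk3* thus rose from a low level and remained below *Pdk1* on this scale.

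**Figure D3:**
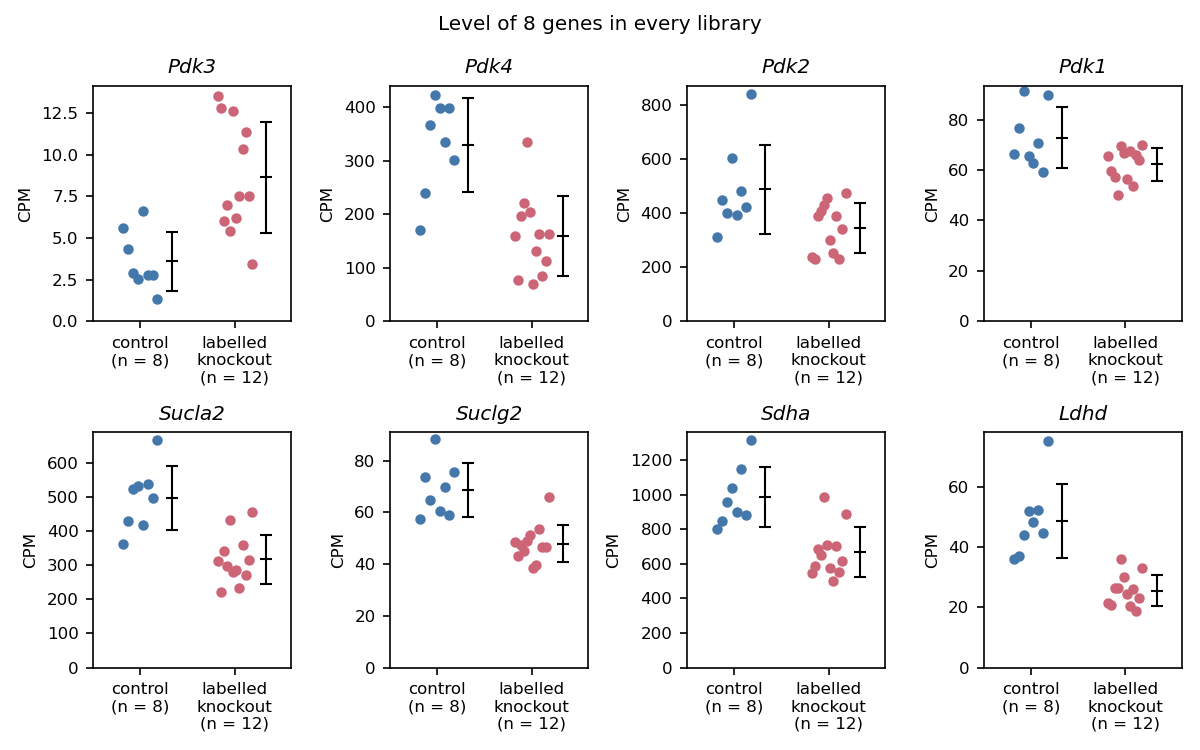
CPM of 8 genes in every library (points), with the mean and SD of each group as black bars. *Pdk3* was 1.30 to 6.61 CPM in control and 3.44 to 13.5 CPM in the libraries labelled knockout, and the other 7 genes had lower group means in the libraries labelled knockout, with *Pdk1* not past the threshold.

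Among the phosphatases that reactivate the complex, *Pdp1*, the calcium-stimulated catalytic subunit, was lower (log2 fold change -0.62, SE 0.17, edgeR adjusted p = 0.0120), from 57.7 ± 15.7 (SD, n = 8) to 37.7 CPM ± 9.63 (SD, n = 12). *Pdp2*, the other catalytic subunit, had means of 6.53 and 6.06 CPM and a log2 fold change of -0.11 (adjusted p = 0.668). It was the weakest of the 34 genes per kilobase, at 1.15 CPM per kb in control. *Pdpr*, the regulatory subunit, had a log2 fold change of -0.70 (adjusted p = 0.182) with a coefficient of variation of 68.0% in control, the widest of the list.

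The complex itself was lower in 4 of its 5 genes. The called genes were *Pdha1*, the catalytic alpha subunit of E1 (-0.44, edgeR adjusted p = 0.0168), *Dlat*, the E2 core (-0.41, adjusted p = 0.0225), *Pdhx*, the E3 binding protein (-0.44, adjusted p = 0.0166), and *Dld*, the E3 subunit. *Pdhb*, the beta subunit of E1, had a value of -0.29 (adjusted p = 0.0903). *Dld*, which the oxoglutarate complex also uses, ran from 241 to 342 CPM in control, with a median of 276, and from 162 to 295 CPM in the libraries labelled knockout, with a median of 196. Of the 12 libraries labelled knockout, 10 lay below every control library, and the log2 fold change was -0.47 (edgeR adjusted p = 0.00597, SE 0.11). *Dld* and *Pdha1* were called in all 20 fits without 1 library.

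Upstream of the complex, *Mpc1* and *Mpc2* form the carrier that brings pyruvate through the inner mitochondrial membrane. *Mpc2* was lower (-0.50, SE 0.16, edgeR adjusted p = 0.0279), from 235 ± 54.9 (SD, n = 8) to 167 CPM ± 44.6 (SD, n = 12). *Mpc1* had a log2 fold change of -0.51 (adjusted p = 0.0615, SE 0.19). Reads of *Mpc1* are uncertain, because the processed pseudogene *Mpc1-ps* is identical to it over 261 bases and held 39400 counts beside 21450 for *Mpc1*. With both rows summed, *Mpc1* had a log2 fold change of -0.48 and was called lower (adjusted p = 0.0251). This setting was added after seeing the data. The ratio of *Mpc1* to *Mpc2* within libraries differed by -0.01 on the log2 scale (exact permutation p = 0.942).

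All 3 lactate dehydrogenase genes had negative fold changes, and *Ldhd* passed the threshold. *Ldhd* (ENSMUSG00000031958, chr8:111623785-111630374, minus strand) encodes the mitochondrial D-lactate dehydrogenase, and had the smallest p of the list. It ran from 36.1 to 75.3 CPM in control, with a median of 46.6, and from 18.9 to 36.1 CPM in the libraries labelled knockout, with a median of 25.3. Knockout replicate 5 alone reached the lowest control library, and the other 11 lay below it. The mean fell from 48.8 ± 12.3 (SD, n = 8) to 25.6 CPM ± 5.29 (SD, n = 12), for a log2 change of -0.93 (edgeR adjusted p = 0.00102, SE 0.14). With the muscle covariate it was -0.62 (adjusted p = 0.00317), and with the osteoclast covariate -0.56 (adjusted p = 0.597). The exons of *Ldhd* overlap those of *Znrf1* on the opposite strand by 2246 bases, and *Znrf1* held 43992 counts beside 12623 for *Ldhd*. The use of strand in counting is not given in the sources used here. Reads of *Znrf1* (log2 fold change -0.31, adjusted p = 0.0452) may therefore be among those of *Ldhd*.

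*Ldha* and *Ldhb* encode the muscle-type and heart-type subunits of L-lactate dehydrogenase. *Ldha* ran from 711 to 2696 CPM in control, with a median of 1095, and from 558 to 1381 CPM in the libraries labelled knockout, with a median of 894. *Ldhb* ran from 111 to 630 CPM in control, with a median of 376, and from 117 to 364 CPM in the libraries labelled knockout, with a median of 270. Control replicate 8 was at once the highest library for *Ldha* and the lowest for *Ldhb*, and the groups overlapped widely. Neither passed the threshold, with a log2 change of -0.45 (edgeR adjusted p = 0.113, SE 0.21) for *Ldha* and -0.45 (adjusted p = 0.167, SE 0.24) for *Ldhb*. Without control replicate 8, *Ldhb* was called lower (adjusted p = 0.0474).

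At the entry of the cycle, *Cs*, citrate synthase, was lower, from 965 ± 209 (SD, n = 8) to 651 CPM ± 158 (SD, n = 12), with a log2 change of -0.57 (edgeR adjusted p = 0.0105, SE 0.15). The subunits of the NAD-dependent isocitrate dehydrogenase were called lower, with -0.45 for *Idh3a* (adjusted p = 0.0281), -0.47 for *Idh3b* (adjusted p = 0.0189) and -0.41 for *Idh3g* (adjusted p = 0.0481). *Idh2*, the mitochondrial NADP-dependent enzyme, lay just outside the threshold at -0.52 (adjusted p = 0.0503). The call on *Idh3g* was kept in 5 of 20 fits without 1 library and that on *Cs* in all 20.

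The succinyl-CoA ligase genes held 2 of the 3 smallest p of the list. *Suclg2*, the beta subunit of the GTP-forming ligase, ran from 57.5 to 88.4 CPM in control, with a median of 67.4, and from 38.6 to 66.0 CPM in the libraries labelled knockout, with a median of 47.0. *Sucla2*, the beta subunit of the ATP-forming ligase, ran from 362 to 666 CPM in control, with a median of 510, and from 221 to 455 CPM in the libraries labelled knockout, with a median of 304. Knockout replicate 12 was the highest of its group for both genes, and 11 and 10 of the 12 libraries lay below every control library. The log2 fold changes were -0.52 for *Suclg2* (edgeR adjusted p = 0.00163, SE 0.10) and -0.64 for *Sucla2* (adjusted p = 0.00313, SE 0.14). With the muscle covariate both were -0.38 (adjusted p = 0.0327 and 0.0476), and with the osteoclast covariate *Suclg2* was -0.36 (adjusted p = 0.597) and *Sucla2* -0.20 (adjusted p = 0.848). A pseudogene, *Gm15163*, that is 98.9% identical to *Suclg2* over 1302 bases held 6.18% of its count.

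*Suclg1*, the alpha subunit that both ligases share, was lower as well (-0.45, edgeR adjusted p = 0.0360), as was *Dlst*, the E2 core of the oxoglutarate dehydrogenase complex (-0.37, adjusted p = 0.0330). *Ogdh*, the E1 subunit of that complex, had a value of -0.41 (adjusted p = 0.0719). The ratio of *Sucla2* to *Suclg2* had geometric means of 7.17 in control and 6.53 in the libraries labelled knockout. The difference of -0.13 on the log2 scale lay within the spread between libraries (exact permutation p = 0.195, 0.973 after adjustment over 5 ratios).

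All 4 succinate dehydrogenase subunits, which join the cycle to the respiratory chain, were called lower. *Sdha*, the flavoprotein, ran from 802 to 1319 CPM in control, with a median of 932, and from 500 to 989 CPM in the libraries labelled knockout, with a median of 633. Knockout replicates 5 and 12 were the 2 libraries of their group within the control range, and the other 10 lay below it. The log2 fold change of *Sdha* was -0.57 (edgeR adjusted p = 0.00525, SE 0.13). *Sdhb*, the iron-sulphur subunit, changed by -0.41 (adjusted p = 0.0469), and the membrane anchors *Sdhc* and *Sdhd* by -0.40 (adjusted p = 0.0491) and -0.38 (adjusted p = 0.0262). *Sdha* was called in all 20 fits without 1 library, *Sdhd* in 18, *Sdhb* in 6 and *Sdhc* in 4.

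At the end of the cycle, *Fh1*, fumarase, was called lower (-0.45, SE 0.14, edgeR adjusted p = 0.0232). The malate dehydrogenases did not pass the threshold. *Mdh1*, the cytosolic enzyme, had means of 1101 and 826 CPM (-0.41, adjusted p = 0.0609), and *Mdh2*, the mitochondrial enzyme, 1076 and 831 CPM (-0.37, adjusted p = 0.0989). Without knockout replicate 5 both were called lower.

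Ratios within a library need no scaling between libraries. None of the 5 ratios tested passed the threshold, and the smallest p was that of *Sucla2* to *Suclg2*, given above. *Ldha* to *Ldhb* had a geometric mean of 3.51 in both groups (exact permutation p = 0.9995), with a range of 1.87 to 24.2 in control and 1.56 to 7.16 in the libraries labelled knockout. *Mdh1* to *Mdh2* differed by -0.05 (exact permutation p = 0.689) and *Idh2* to *Idh3a* by -0.07 (exact permutation p = 0.697) on the log2 scale. The SD of the log2 ratios in control ran from 0.23 for *Sucla2* to *Suclg2* to 1.20 for *Ldha* to *Ldhb*, so small differences were not detectable. Without control replicate 8 the difference was 0.40 for *Ldha* to *Ldhb*, -0.17 for *Mdh1* to *Mdh2* and -0.22 for *Idh2* to *Idh3a*, each with an adjusted exact permutation p of 0.275, and -0.06 for *Mpc1* to *Mpc2* (adjusted exact permutation p = 0.783).

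**Figure D4:**
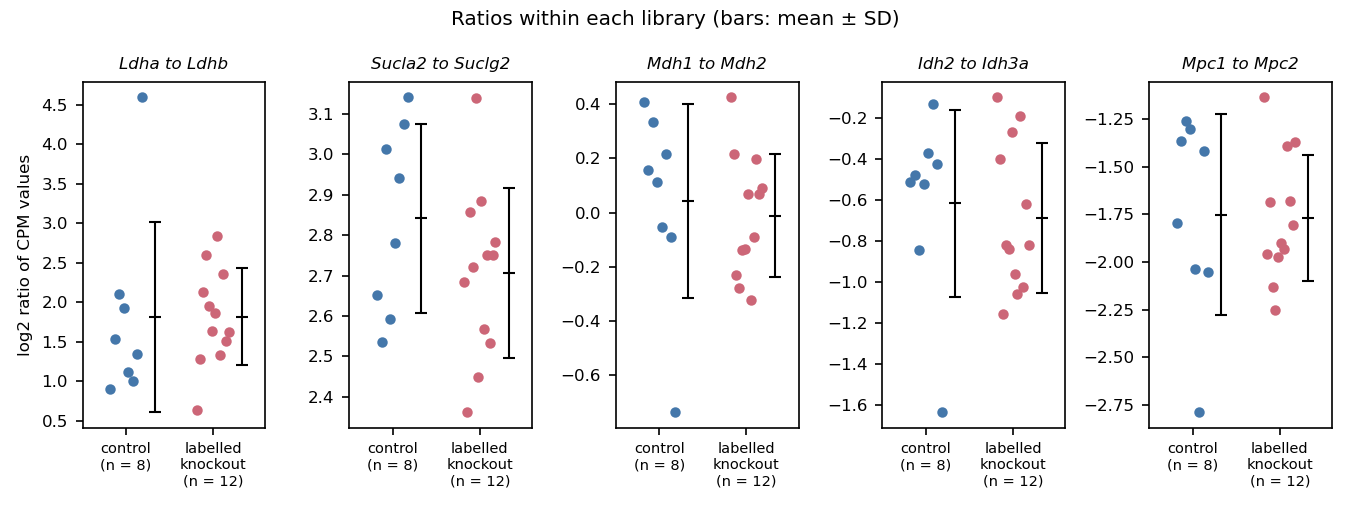
Log2 ratio of CPM values of 5 gene pairs in each library, with the mean and SD of each group as black bars. The groups overlap in every panel, and control replicate 8 lies apart at the top for *Ldha* to *Ldhb*, with a ratio of 24.2, and at the bottom for *Mdh1* to *Mdh2*, with 0.601.

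Per kilobase of exon, the most abundant members in control were *Mdh1* with 429 ± 80.4 (SD, n = 8) CPM per kb, *Ldha* with 385 ± 185 and *Mdh2* with 302 ± 65.4, followed by *Sdhd* with 255 and *Sdha* with 240. These neighbours in the order lay within their spread of each other. The order also depends on the exon length, which merges all annotated exons of a gene. The weakest were *Pdpr* with 6.60, *Pdk3* with 1.41 and *Pdp2* with 1.15 CPM per kb. In the libraries labelled knockout *Mdh1*, *Ldha* and *Mdh2* were again at the head, with 322, 281 and 233 CPM per kb.

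**Figure D5:**
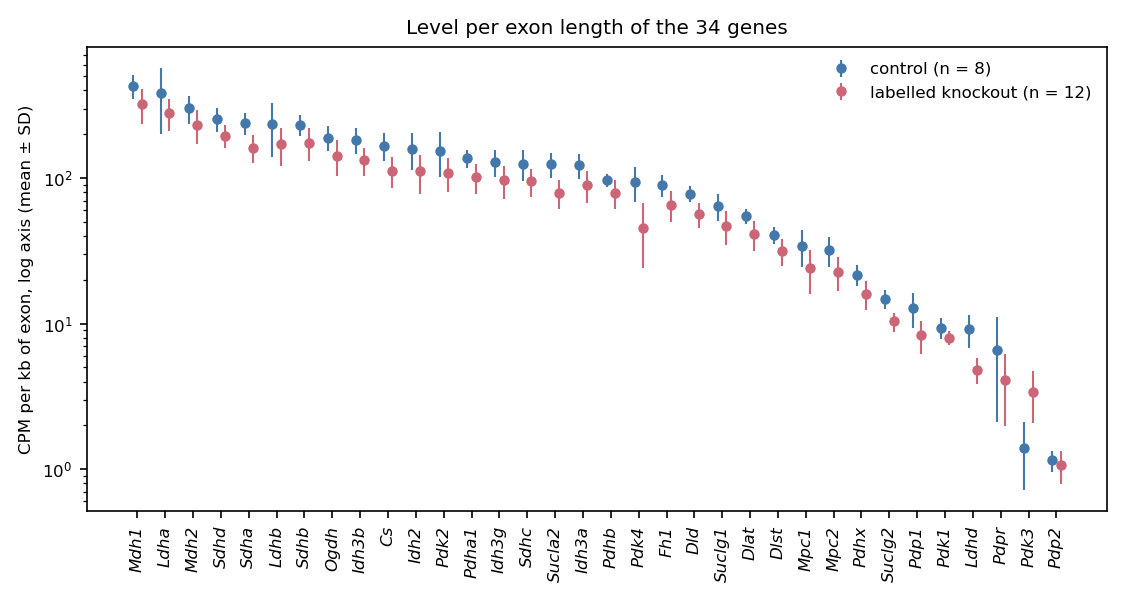
Mean CPM per kb of exon (log axis) of the 34 genes in control (n = 8) and in the libraries labelled knockout (n = 12), with bars of 1 SD, ordered by the control mean. The levels span from 1.15 for *Pdp2* to 429 for *Mdh1* in control, and *Pdk3* is the member with the higher mean in the libraries labelled knockout.

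Of 46 related genes of the pathway, 17 (37%) were called lower and 7 (15.2%) higher, beside 11% and 12% of all genes tested, with a median of -0.23. With the osteoclast covariate none was called in either direction by edgeR. Among enzymes related to those of the cycle, not all of them part of it, *Ogdhl* (-0.62, edgeR adjusted p = 0.0378) and *Dhtkd1* (-0.52, adjusted p = 0.0407) were lower. *Aco1* (0.25, adjusted p = 0.0550) and *Idh1* (0.16, adjusted p = 0.250) had positive fold changes and did not pass the threshold. Of 4 assembly factors of succinate dehydrogenase, *Sdhaf3* (-0.47, adjusted p = 0.00772) and *Sdhaf4* (-0.44, adjusted p = 0.0256) were lower.

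The 7 related genes called higher were *Pck2*, *Me2*, *Slc16a7*, *Slc25a1*, *Slc25a10*, *Hif1a* and *Myc*. *Me2*, a mitochondrial malic enzyme that makes pyruvate from malate, ran from 2.91 to 8.04 CPM in control and from 8.67 to 22.3 CPM in the libraries labelled knockout, so that the groups did not overlap. Its log2 fold change was 1.34 (edgeR adjusted p = 0.00128, SE 0.23), and it was 0.87 with the muscle covariate (adjusted p = 0.0204) and 0.51 with the osteoclast covariate (adjusted p = 0.675). *Slc25a1*, the citrate carrier, rose by 1.19 (adjusted p = 0.0200, SE 0.35) and *Slc16a7*, a monocarboxylate transporter, by 1.18 (adjusted p = 0.00870, SE 0.30). Of the regulators, *Myc* rose by 1.01 (adjusted p = 0.00217, SE 0.20), with 10 of 12 libraries above every control library. With the osteoclast covariate *Slc25a1* was 0.65 (adjusted p = 0.804), *Slc16a7* was -0.08 (adjusted p = 0.980) and *Myc* was 0.0016 (adjusted p = 0.998). *Me3*, the other mitochondrial malic enzyme, was lower, with means of 68.8 and 41.0 CPM (-0.75, adjusted p = 0.00419).

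Of the 10 regulators, *Ppargc1a*, a coactivator of mitochondrial gene expression, was lower (-0.66, edgeR adjusted p = 0.0327), as were *Ppargc1b* (-0.42, adjusted p = 0.0473) and *Tfam*, which maintains mitochondrial DNA (-0.43, adjusted p = 0.00403). *Hif1a*, the oxygen-sensitive subunit of the hypoxia-inducible factor, was higher (0.49, adjusted p = 0.0301). *Esrra* and *Nrf1* had values of -0.21 (adjusted p = 0.307) and 0.08 (adjusted p = 0.433). Of 4 lipoylation genes, which supply the lipoyl group that both oxoacid dehydrogenase complexes need, *Lias* (-0.45, adjusted p = 0.00638) and *Mcat* (-0.25, adjusted p = 0.0422) were lower.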

How the data were processed

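The deposited values are raw read counts of Ensembl genes in 20 libraries (8 control, 12 labelled knockout). Per the methods and the labels, the authors trimmed paired-end Illumina reads, mapped them to mm10 and counted them with featureCounts 1.5.0-p3. The aligner, strand setting and treatment of multiply mapped reads are not given in the sources used here. Identifiers were matched to GENCODE M21 (54495 of 54532). The members and lists were chosen with earlier results of these data known. Genes were kept by filterByExpr, scaled by TMM and tested with the quasi-likelihood F-test of edgeR 4.0.16 in R 4.3.3, two-sided, with Benjamini-Hochberg adjustment over 15984 genes and a threshold of 0.05. DESeq2 1.42.0, other scalings, filters and covariates were alternatives. Covariates were the mean log2 CPM of a marker list. CPM use TMM-scaled totals, and log2 CPM a prior count of 2. Levels per kb use the merged length of all annotated exons of a gene, which can exceed the length of the transcript in use. Ratios and marker sums (16 lists, log2 of the sum plus 1) were compared by exact two-sided permutation tests over 125970 assignments. Library totals set the counting precision. Members described in full are the 6 with the smallest p, the member called higher, *Pdk1* to *Pdk4*, *Ldha* and *Ldhb*. Related genes described are the 4 with the largest change among those called with a mean of at least 5 CPM; other related genes are named with their values and were chosen after these were seen, and 1 related gene is not reported here. The labels name separate samples by number and give no batch.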

Additional observations from a re-analysis of the deposited data

Results flagged for a closer look

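Among 40 values tested in the 8 control libraries, 2 had a library far from the others. At 1 in 20 groups chance would give about as many if the values were independent. They are not, since the ratios use genes of the list, and both cases lie in control replicate 8. The log2 ratio of *Ldha* to *Ldhb* was highest in control replicate 8, where the gap to the next library took 0.674 of the range of the group, above the critical value of 0.526. The ratio there was 24.2, beside a control median of 2.71. The log2 ratio of *Mdh1* to *Mdh2* was lowest in the same library, with a gap of 0.563 of the range and a ratio of 0.601, beside a control median of 1.10. Control replicate 8 also had the highest muscle sum, 206820 CPM, and the lowest chondrocyte sum, 101 CPM. The part of tissue makeup in these ratios was not tested.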

How the results depend on the processing

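The number of members called lower was 22 of 34. It was 25 with the DESeq2 Wald test, 16 with library totals alone, 13 with no filter, 10 with the replicate block, 3 with the muscle covariate, 0 with the osteoclast covariate and 12 without the 3 libraries lowest in chondrocyte genes, a setting added after seeing the data. Over all genes, 1755 of 15984 were called lower in the reported fit and 10.7% with the DESeq2 Wald test. The all-gene count was 1324 of 34192 with no filter and 686 of 15571 with the block. It was 312 of 15984 with the muscle covariate, 0 with the osteoclast covariate and 1044 of 16525 without the 3 libraries. Without 1 library the count of members called lower ran from 11 (without control replicate 8) to 27 (without knockout replicate 12), and it was 12 without control replicate 6. Over all genes, these 3 fits called 988 of 16254, 1940 of 15901 and 1297 of 16205 lower. The count of members called higher was 1, and 0 with the muscle or the osteoclast covariate. With library totals alone the median of all genes was 0.12 and 47.1% of members against 5.31% of all genes were called lower, and the member median minus the all-gene median was -0.42, beside -0.43 in the reported fit. Of the related genes, 17 were called lower, but 9 with library totals alone or with no filter, 8 with the replicate block, 2 with the muscle, 0 with the osteoclast and 11 with the adipocyte covariate, 10 without the 3 libraries, and 9 to 19 without 1 library (9 without control replicate 6). The 7 called higher became 3 with the muscle covariate and 0 with the osteoclast covariate.

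With the osteoclast covariate the log2 fold change turned positive for *Mpc2* (0.056), *Ldha* (0.37), *Pdhb* (0.0389), *Pdhx* (0.0113), *Pdk2* (0.0304), *Idh3a* (0.0385), *Idh3g* (0.0968), *Suclg1* (0.0537), *Sdhb* (6.1e-05), *Sdhc* (0.0647), *Fh1* (0.0041) and *Mdh2* (0.12). It did so for *Ldha* with the muscle covariate (0.0866) and for *Pdp2* with library totals alone (0.0459). The ratio of *Ldha* to *Ldhb* changed sign with the replicate block (0.0532). Without 1 library the log2 difference ran from -0.13 to 0.40 for *Ldha* to *Ldhb*, from -0.16 to 0.0557 for *Mpc1* to *Mpc2*, from -0.17 to -0.0021 for *Mdh1* to *Mdh2*, from -0.22 to -0.0043 for *Idh2* to *Idh3a* and from -0.18 to -0.09 for *Sucla2* to *Suclg2*. *Loxl2* ran from 0.50 to 0.78 without 1 library and passed the threshold without knockout replicate 12 (0.74, adjusted p = 0.0313). The cause of these changes was not tested.

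Replicate numbers are shared by the groups, and deviations of same-numbered libraries correlated from -0.36 to 0.17. Libraries with different numbers were not compared, so these values cannot settle whether the numbers pair the animals. The block on 16 libraries called 10 members lower, against 24 for the same libraries with no block. Over all 15571 genes tested, the counts called lower were 686 and 1486.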
